A study of Mus musculus with 2 samples.

Results

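The genes described here were 38 genes of DNA end joining, mismatch repair and excision repair, chosen by gene symbol from a list of members. Their measured values were not part of the rule of choice, but earlier results of these data were known when it was made. All 38 were found among the 24411 genes of the deposited tables, on 53 of 35034 RefSeq transcript rows, and no listed gene lacked a row. RNA-seq had been performed on dorsal root ganglion (DRG) neuron preparations from male C57BL/6J mice (C57BL/6 on the labels) aged 6 to 8 weeks. Mice were injected intraperitoneally on days 0 and 14 with either 50% alum, an aluminium salt adjuvant, or 50% alum plus 100 µg of keyhole limpet hemocyanin (KLH), a mollusc protein that serves as a foreign antigen, and thoracic and lumbar DRGs were collected 14 days after the second injection. Each group was 1 library from the pooled neurons of 10 mice, enriched by density centrifugation and depleted of B lymphocytes with beads. The label of the control library names it both naïve and alum alone, and it was read as alum-injected.

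Levels are given as TPM, a length-corrected read measure that adds up to 1000000 in each library. Length correction alone does not make genes fully comparable, and levels of the repair genes also differed with base composition, as given below. TPM were summed over the rows of a gene. With 1 library per group there is no replicate error, no test of the immunization was possible, and every difference below describes these 2 pools. The study's methods state a minimum read depth, but TPM keep no read count per gene, so no counting interval or detection floor could be given. A gene was called detected above 3 TPM, the limit used in the study. All 8 sensory neuron markers examined were above it in both pools, led by Nefl at 5259.3 TPM in the alum pool and 5048.0 TPM in the alum + KLH pool, as were all 5 satellite glia and 4 of 6 Schwann cell markers, led by Fabp7 at 952.6 and 888.1 TPM and Pmp22 at 1062.2 and 1020.7 TPM. Of 5 endothelial markers 2 were above it, led by Emcn at 5.17 and 4.46 TPM, and Cldn5 was listed at 0 in the alum + KLH pool. Of 4 fibroblast markers 2 were above it, led by Dcn at 63.8 and 62.6 TPM. None of 7 macrophage, 5 B lymphocyte and 4 T lymphocyte markers was above it in both pools, and Cd79b and Cd3g were listed at 0 in both. The highest of these were Cx3cr1 at 2.08 and 1.66 TPM, Cd79a at 0.508 and 0.131 TPM and Cd3d at 2.97 and 3.13 TPM. Of 8 markers of cycling cells, 2 (Birc5, the highest at 6.08 and 6.70 TPM, and Ccna2) were above 3 TPM in both pools, and the 8 together summed to 16.7 TPM in the alum pool and 16.7 TPM in the alum + KLH pool.

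DNA lesions are repaired by routes that differ in the damage they recognise. Non-homologous end joining seals broken DNA ends directly and is the main route for such breaks in cells that no longer divide, such as neurons, and it also joins antibody gene segments in lymphocytes. Mismatch repair corrects copying errors left behind the replication fork, and base excision repair removes oxidised, deaminated or alkylated bases. Several of these proteins also act in antibody diversification in B lymphocytes, where base excision and mismatch repair process deaminated cytosines.

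Of the 38 genes, 29 (76.3%) were above 3 TPM in both pools. Over all genes the share was 45.5%, and over genes with a protein-coding row 50.8%. The alum + KLH pool alone passed the limit for Nhej1, and 8 genes were at or below it in both pools (Exo1, Tdg, Neil1, Nthl1, Mutyh, Apex2, Xrcc1 and Pole). The median level was 12.3 TPM in the alum pool and 12.9 TPM in the alum + KLH pool, and 22 genes were over 10 TPM in both. The levels ranged from 0.192 TPM for Nthl1 to 190.3 TPM for Pcna in the alum pool and from 0.0553 to 195.8 TPM for the same genes in the alum + KLH pool. In such mixed preparations, fewer cells that express a gene and less of its RNA per cell cannot be told apart.

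**Figure D1:**
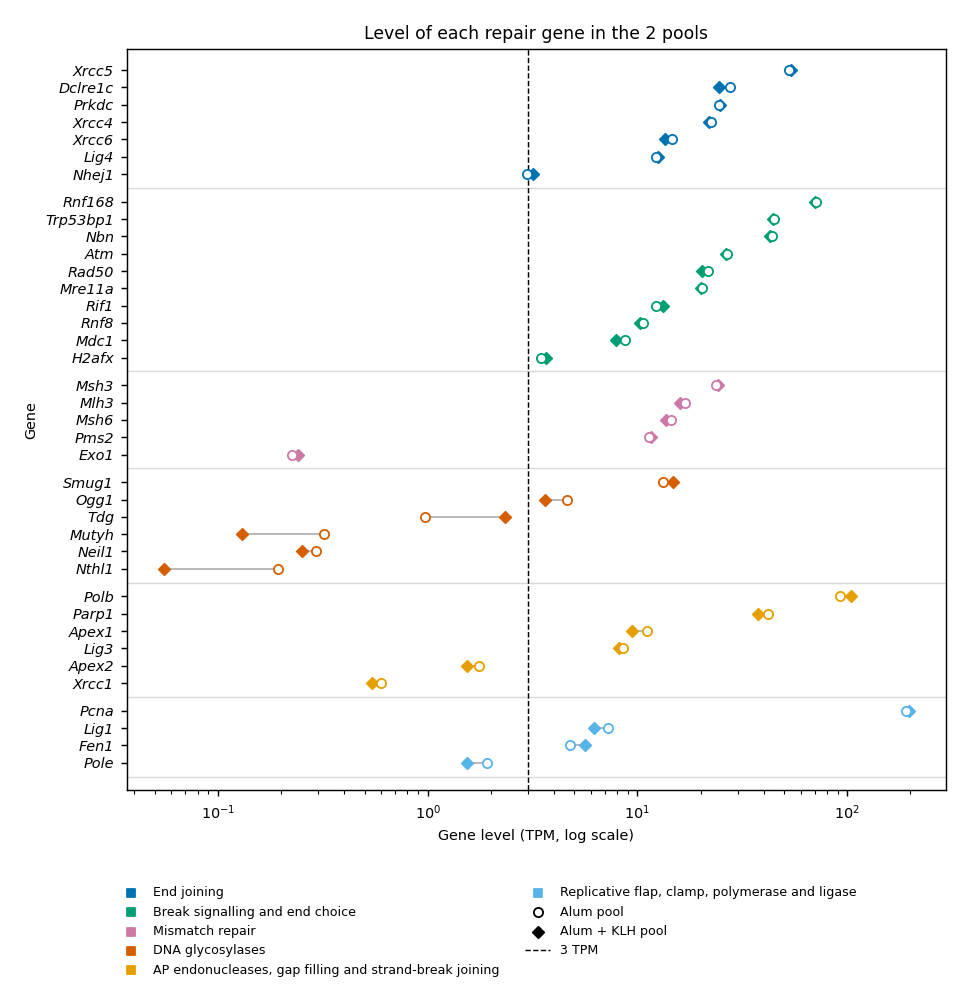
Level of each of the 38 repair genes in TPM on a log axis, grouped by role, with an open circle for the alum pool and a filled diamond for the alum + KLH pool, 1 library each, and a dashed line at 3 TPM. Paired symbols lie close together for genes over 3 TPM, and the wide pairs are the low glycosylase genes Tdg, Mutyh and Nthl1.

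Genes of end joining were expressed at moderate levels in both preparations. Ku, the ring that first binds a broken end, is made of the products of Xrcc5 (Ku80) and Xrcc6 (Ku70). Xrcc5 was at 52.9 TPM in the alum pool and 53.7 TPM in the alum + KLH pool, and 16.9% and 16.5% of protein-coding genes were higher. Xrcc6 was at 14.6 and 13.5 TPM, so that the message for Ku80 exceeded that for its partner 3.62-fold in the alum pool and 3.99-fold in the alum + KLH pool. The subunits were thus not at equal mRNA levels in either library.

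Prkdc encodes the catalytic subunit of DNA-PK, the kinase that Ku recruits, and was at 24.6 and 24.7 TPM. Dclre1c, which encodes Artemis, the nuclease that opens hairpin ends, was at 27.7 and 24.4 TPM. The ligation step rests on Lig4 and its partner Xrcc4. Lig4 was at 12.3 and 12.5 TPM, and Xrcc4 at 22.5 and 21.9 TPM. Nhej1, which encodes XLF, a factor that bridges the ends with XRCC4, was the lowest of the 7 end joining genes at 2.98 and 3.17 TPM, on either side of the detection limit.

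All 10 genes of break signalling and end choice were above 3 TPM in both pools. The MRN complex senses breaks and activates the kinase ATM. Its scaffold gene Nbn was at 43.6 TPM in the alum pool and 42.8 TPM in the alum + KLH pool. Rad50 was at 21.7 and 20.3 TPM and Mre11a, the nuclease subunit gene, at 20.3 and 20.1 TPM. Rad50 and Mre11a lay within 1.07-fold of each other in the alum pool and 1.01-fold in the alum + KLH pool, and Nbn was 2.01-fold and 2.11-fold above Rad50. Atm itself was at 26.7 and 26.4 TPM.

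Downstream of ATM, phosphorylated histone H2AX is bound by MDC1, which draws in the ubiquitin ligases RNF8 and RNF168, and 53BP1 with RIF1 then steers the break toward end joining. Rnf168 was the third highest of the 38 genes at 70.7 and 69.9 TPM, and its level was 6.65-fold and 6.82-fold that of Rnf8, which was at 10.6 and 10.2 TPM and shares 34.6% of its 31-base words with other genes. Trp53bp1, the 53BP1 gene, was at 44.5 and 44.3 TPM. Rif1 was at 12.2 and 13.2 TPM and Mdc1 at 8.76 and 7.89 TPM. H2afx, the H2AX gene, was the lowest of these 10 genes at 3.46 and 3.67 TPM. Rnf168 and Trp53bp1 therefore stood well above H2afx and Mdc1, whose products act before theirs, while Rnf8 and Rif1 were nearer to Mdc1. Of the 31-base words of the main Trp53bp1 row, 21.8% also occur in Tubgcp4, and the part of this sharing was not tested.

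Mismatch repair genes were detected except for its exonuclease. Msh3 and Msh6 encode alternative partners in the MutS complexes that recognise loops and mispairs. Msh3 was at 23.7 TPM in the alum pool and 24.2 TPM in the alum + KLH pool, and Msh6 at 14.5 and 13.6 TPM, so that Msh3 was 1.63-fold and 1.77-fold higher. Mlh3 and Pms2, which encode endonuclease subunits of the MutL complexes, were at 16.9 and 16.0 TPM and at 11.3 and 11.6 TPM. Exo1, the exonuclease that removes the strand with the error, was at 0.225 and 0.241 TPM, and 71.3% and 70.6% of protein-coding genes were higher.

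The DNA glycosylases, which cut out single damaged bases, were the least expressed group among the 38 genes, with 2 of 6 genes above 3 TPM in both pools. Smug1, whose product removes uracil and oxidised pyrimidines, was the highest at 13.2 TPM in the alum pool and 14.7 TPM in the alum + KLH pool. Ogg1, whose product removes 8-oxoguanine, was at 4.6 and 3.63 TPM. Tdg, the thymine-DNA glycosylase gene, was at 0.966 and 2.34 TPM. Neil1 was at 0.293 and 0.252 TPM, Mutyh at 0.321 and 0.130 TPM and Nthl1 at 0.192 and 0.0553 TPM. Neil1 and Nthl1 encode glycosylases for oxidised pyrimidines and Mutyh the one that removes adenine opposite 8-oxoguanine. Glycosylase genes outside the 38 were not uniformly low. Mbd4 was at 7.99 and 7.94 TPM and Mpg at 5.97 and 4.36 TPM, above the limit in both pools. Neil2, a relative of Neil1, was at 2.96 and 3.13 TPM and Neil3 at 0.257 and 0.172 TPM. Ung, the uracil-DNA glycosylase gene, was at 1.27 TPM in the alum pool and 0.708 TPM in the alum + KLH pool, under the limit in both. In GENCODE 75.7% of the 31-base words of the Tdg transcripts also occur in other genes, mostly Tdg-ps, which has no row in the tables, and the part of this sharing in the Tdg value was not tested.

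The later steps of base excision showed wide differences between genes whose products work together. Polb, which encodes the gap-filling DNA polymerase beta, was the second highest of the 38 genes at 92.7 and 103.9 TPM, exceeded by 10.7% and 9.82% of protein-coding genes. Parp1, the strand-break sensor gene, was at 41.8 and 37.6 TPM. Lig3, the gene of the ligase for the last nick in this route, was at 8.49 and 8.17 TPM. Xrcc1, which encodes the scaffold that holds polymerase beta and ligase III together, was at 0.60 and 0.541 TPM, 155-fold below Polb in the alum pool and 192-fold below it in the alum + KLH pool. Both Xrcc1 values were under the limit of 3 TPM, so the size of these folds is uncertain. Apex1, the main AP endonuclease gene, was at 11.1 and 9.43 TPM, and its relative Apex2 at 1.77 and 1.55 TPM.

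Pcna encodes the sliding clamp that holds polymerases and repair enzymes on DNA, and it was the highest of the 38 genes in both pools, at 190.3 TPM in the alum pool and 195.8 TPM in the alum + KLH pool. The other 3 replicative genes among the 38 were lower. Lig1, the replicative ligase gene, was at 7.24 and 6.21 TPM, Fen1, the flap endonuclease gene, at 4.76 and 5.62 TPM, and Pole, the leading-strand polymerase gene, at 1.91 and 1.54 TPM. Pcna exceeded Fen1 39.9-fold and 34.8-fold and Pole 99.5-fold and 127-fold, the latter from Pole values under the limit of 3 TPM. Other genes that act with the clamp lay both above and below Lig1, Fen1 and Pole. Pole4, a polymerase epsilon subunit gene, was at 73.6 and 81.8 TPM and Rfc1, a clamp loader gene, at 42.9 and 40.9 TPM. Pold1, a polymerase delta subunit gene, was at 0.0368 and 0.0316 TPM. Of 22 replication and cell cycle genes, 7 passed the limit in both pools, and the median was 1.46 and 1.26 TPM. Mcm4, a helicase subunit gene, led them with 29.9 and 27.4 TPM, Aurkb was lowest, listed at 0 in the alum pool and at 0.0857 TPM in the alum + KLH pool, Mki67 was at 3.04 and 2.43 TPM and Top2a at 0.691 and 0.439 TPM. In the GENCODE annotation 37.97% of the 31-base words of the Pcna transcript also occur in Pcna-ps2 and 90.8% of those of the main Fen1 row in Gm10143, genes without a row in the tables. The part of this shared sequence in the Pcna and Fen1 values was not tested.

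Other genes of DNA repair and checkpoint control were read from 5 lists with 80 genes, and 55 of them (68.8%) were above 3 TPM in both pools. Of 12 other end joining genes 6 passed, with Tdp2, which frees ends blocked by topoisomerase, the highest at 74.5 and 77.6 TPM. Dntt, the lymphocyte polymerase that adds bases without a template, was the lowest, listed at 0 in the alum pool and at 0.0269 TPM in the alum + KLH pool. Of 21 other base excision genes 14 passed. Levels in that whole list ran from Pold1 at 0.0368 and 0.0316 TPM to Hmgb1 at 347.2 and 358.7 TPM. Nucleotide excision repair had 18 of 21 genes above the limit, led by Rad23b at 374.4 and 406.2 TPM and with Ercc2 lowest at 0.728 and 0.441 TPM. Homologous recombination had 8 of 15, with Rad52 highest at 14.04 and 15.2 TPM and Rad51b lowest at 0.0352 and 0.0321 TPM. Checkpoint genes had 9 of 11 above the limit, with Clspn lowest at 0.187 and 0.193 TPM and the kinase gene Atr highest at 42.4 and 44.2 TPM. Among 11 damage-responsive genes 8 passed, and Ccng1 was the highest at 225.8 and 239.4 TPM and Bbc3 the lowest at 0.659 and 0.396 TPM. None of the genes above 3 TPM in at least 1 pool in these 6 lists or in the replication list was 1.5-fold apart between the pools.

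The study's groups differ in exposure to KLH, and the repair genes, like most protein-coding genes, differed little between the pools. For each gene 1 TPM was added to both values and the log2 of alum + KLH over alum was taken, a scale that understates the change of low genes, over the 11648 genes above 3 TPM in at least 1 pool. Of the 38 repair genes 30 passed this filter. None of the 30 was 2-fold apart, against 1.64% of all genes (0.695% higher and 0.944% lower in the alum + KLH pool) and 0.12% of protein-coding genes. None was 1.5-fold apart, against 2.56% of all genes (1% higher and 1.55% lower) and 0.748% of protein-coding genes (0.175% higher and 0.572% lower). The median log2 ratio was -0.02 for the 30 genes and -0.02 for all genes. By sign, 18 of the 30 were lower in the alum + KLH pool, beside 56.4% of all genes and 57.1% of protein-coding genes. Dividing the alum + KLH values by the median ratio of the pools (0.987) gave 14 lower genes.

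The largest log2 ratios in size among the 30 were -0.28 for Ogg1, -0.22 for Apex1, 0.20 for Fen1 and -0.19 for Lig1. For scale, the SD of the log2 ratio was taken over the 500 protein-coding genes nearest in level to each gene, a measure of how far similar genes lay apart between the same libraries. This SD ran from 0.11 to 0.28, and 7 of the 30 genes lay beyond it, beside 25.1% of protein-coding genes. Polb (0.16, SD 0.13) and Smug1 (0.15, SD 0.14) were higher in the alum + KLH pool. Parp1 (-0.15, SD 0.11), Dclre1c (-0.17, SD 0.13), Apex1 (SD 0.19), Lig1 (SD 0.19) and Ogg1 (SD 0.24) were lower. With noncoding genes among the 500 neighbours, 2 of the 30, Polb and Parp1, lay beyond the SD. The share of all genes beyond that SD was not computed, so this count has no comparison.

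**Figure D2:**
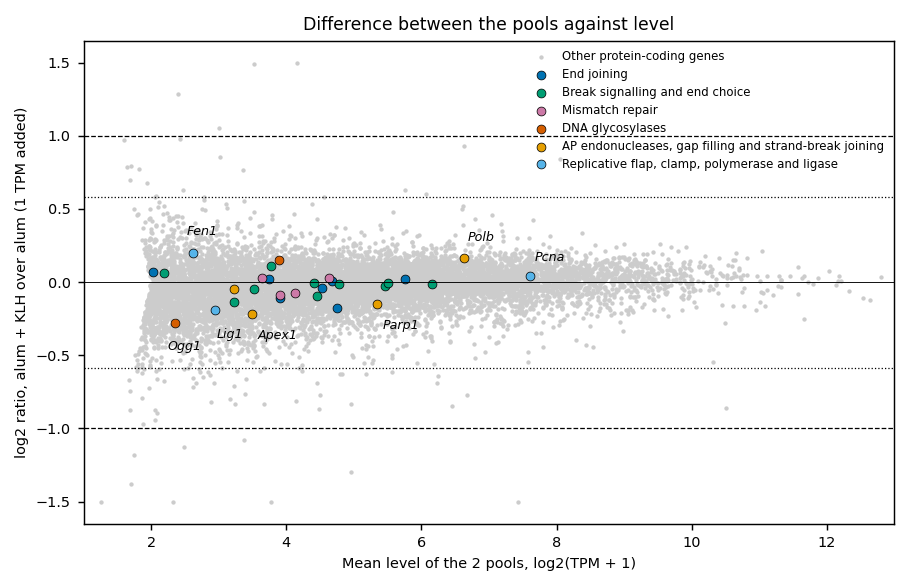
Log2 ratio of alum + KLH over alum against the mean level of the 2 pools for genes above 3 TPM in at least 1 pool, with repair genes in colour and other protein-coding genes in grey (ratios past 1.5 in size are drawn at 1.5). Dashed lines mark 2-fold and dotted lines 1.5-fold, and the 30 repair genes all lie between the dotted lines, from -0.28 to 0.20.

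For 8 of the 38 genes the tables hold several RefSeq rows. Dclre1c had 5. Its highest row, NM_146114, was at 18.3 TPM in the alum pool and 13.9 TPM in the alum + KLH pool, and NM_001302684 at 4.98 and 5.87 TPM. Both of these Dclre1c rows were matched to the same GENCODE transcript. Mlh3 had 9.73 TPM in the alum pool and 5.42 TPM in the alum + KLH pool on NM_001304475, and 7.14 and 10.6 TPM on NM_175337. The first row thus made up 57.7% of the gene in the alum pool and 33.9% in the alum + KLH pool, while the sums were 16.9 and 16.0 TPM. In GENCODE both have 12 exons and a coding length of 4233 bases, in transcripts of 5420 and 5463 bases. Of their 31-base words 0.464% and 1.25% are in that row alone, so the split between them rests on little sequence. Lig3 NM_010716 was at 5.69 and 7.14 TPM and NM_001291247 at 2.72 and 0.942 TPM, and the latter has 0 words of its own among the matched Lig3 transcripts. Tdg NM_172552 was at 0.966 and 1.05 TPM, while NM_011561 was at 4.86e-05 TPM in the alum pool and 1.30 TPM in the alum + KLH pool, which makes up most of the difference in Tdg. Of the words of NM_011561, 2.05% are absent from the other Tdg row. Mutyh was read wholly on NM_133250 in the alum pool and wholly on NM_001159581 in the alum + KLH pool, at 0.321 and 0.130 TPM. Both Mutyh rows were matched to the same GENCODE transcript. Trp53bp1 had 89.1% and 87.7% of its level on NM_001290830, of whose words 0.299% are absent from the other Trp53bp1 row. The 3 Lig1 rows start at different positions on chromosome 7 of GRCm38, at 13277313, 13278826 and 13279265, with the same coding length. The row with the first start held 59.1% of Lig1 in the alum pool and 50.6% in the alum + KLH pool, and the next one 35.1% and 44.7%. Of the words of the 3 rows, in order of start, 6.84%, 4.31% and 6.60% are in that row alone. These splits too rest on little sequence.

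Levels of the repair genes differed with the base composition of their transcripts. GC content was read from the GENCODE sequence matched to the highest row of each gene and ran from 39.3% for Rif1 to 62.3% for H2afx. All 8 genes under 45% GC passed the limit of 3 TPM, and their median level was 23.5 TPM in the alum pool and 23.3 TPM in the alum + KLH pool. From 45 to 50% it was 11 of 13 genes, with medians of 21.7 and 20.3 TPM, and from 50 to 55% 9 of 12, with 7.86 and 7.05 TPM. Over 55% it was 1 of 5 genes, H2afx, and the median was 0.321 and 0.252 TPM. The other 4 were Xrcc1 at 59.3% GC, Neil1 at 58.5%, Nthl1 at 57.9% and Mutyh at 57.1%. Spearman's rho between GC content and TPM across the 38 genes was -0.69 in the alum pool and -0.70 in the alum + KLH pool, a description over genes that share the 2 libraries.

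Across 20450 protein-coding genes the same rho was -0.10 and -0.11, and the classes were not in one order. The share above 3 TPM in both pools was 51.2%, 61.6%, 54.5% and 36.1% from the lowest to the highest GC class. The ratio between the pools moved with GC content as well. Its median over all tested protein-coding genes was 0.04 under 45% GC, 0.00 from 45 to 50%, -0.06 from 50 to 55% and -0.16 over 55%, and rho was -0.50 over 10795 genes. For the repair genes the medians in the first 3 classes were -0.02 (8 genes), -0.01 (11 genes) and -0.12 (10 genes), and rho over the 30 genes was -0.23. Ogg1 (54.6%), Lig1 (53.6%), Parp1 (52.7%) and Apex1 (51.3%), all lower in the alum + KLH pool, belong to the third class. With the median of its GC class subtracted, an alternative chosen after seeing the data, the log2 ratio was -0.22 for Ogg1, -0.13 for Lig1, -0.09 for Parp1 and -0.16 for Apex1, each then smaller than the SD given above. The same step gave -0.17 for Dclre1c, 0.16 for Polb, 0.21 for Smug1 and 0.26 for Fen1, each larger than its SD (0.20 for Fen1). These SDs were taken from ratios without the subtraction, and no SD of the subtracted ratios was computed. The subtracted ratios and the SDs are therefore not on equal terms. The part of base composition in these levels and ratios was not tested.

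**Figure D3:**
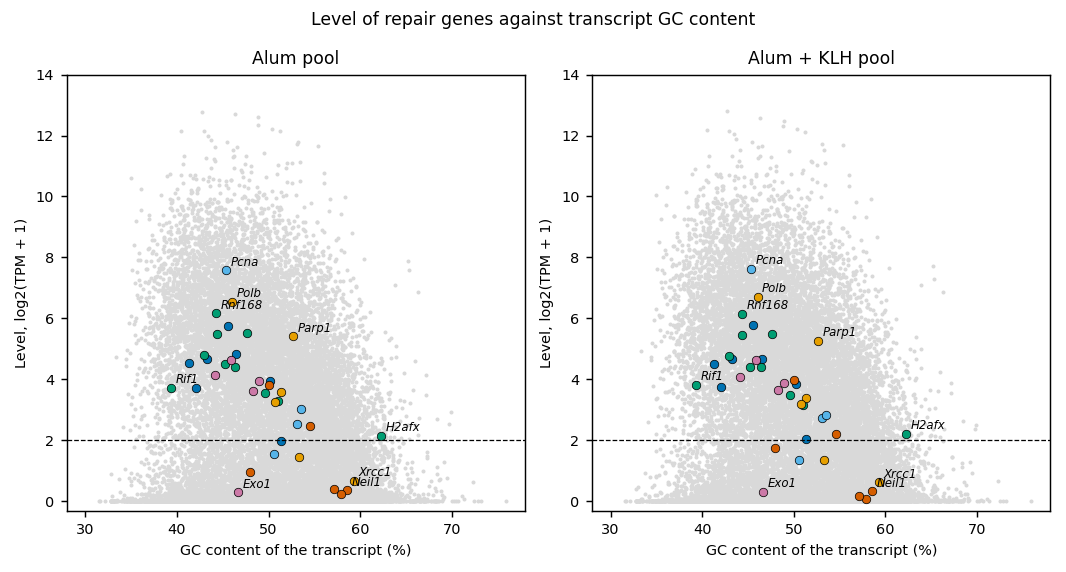
Level as log2(TPM + 1) against transcript GC content in percent in the alum pool (left) and the alum + KLH pool (right), with the 38 repair genes in the colours of the plot of levels by role, other protein-coding genes in grey and a dashed line at 3 TPM. In both panels 4 of the 5 repair genes over 55% GC lie under the line, and Exo1, at 46.6% GC, is low without a high GC content.

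Many of the repair genes start back to back with another gene. In GENCODE, 13 of the 38 (34.2%) have a protein-coding neighbour on the opposite strand whose start lies within 1000 bases, against 11.1% of 19902 genes. The stretches between the starts of 4 such pairs are shown because each lies between genes of like or very unlike level. They are from RefSeq promoter sequence of GRCm38.p6, cut at the GENCODE gene starts, read 5′ to 3′ on the strand of the repair gene, with CG steps in capitals.
Apex1 and Osgep, chr14:50924894-50924967, plus strand: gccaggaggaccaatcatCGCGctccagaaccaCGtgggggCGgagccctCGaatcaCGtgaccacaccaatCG
Pms2 and Aimp2, chr5:143909848-143909963, plus strand: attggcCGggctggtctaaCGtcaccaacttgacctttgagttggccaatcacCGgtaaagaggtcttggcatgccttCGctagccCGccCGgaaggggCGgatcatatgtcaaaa
Mutyh and Toe1, chr4:116807641-116807722, plus strand: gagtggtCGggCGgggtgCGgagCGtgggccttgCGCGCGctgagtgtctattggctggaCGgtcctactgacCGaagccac
Nthl1 and Tsc2, chr17:24632631-24632679, plus strand: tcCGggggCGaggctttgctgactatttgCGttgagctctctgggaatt

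Apex1 and Osgep, a tRNA modification gene, lie 74 bases apart and were close in level, with Osgep at 12.7 TPM in the alum pool and 12.03 TPM in the alum + KLH pool. Aimp2, a gene of the tRNA synthetase complex, was at 15.9 and 16.1 TPM, 116 bases from Pms2. Mutyh and Toe1 are separated by 82 bases, and Toe1, an RNA processing gene, was at 5.55 and 4.67 TPM. Across only 49 bases from Nthl1, Tsc2, a regulator of growth signalling, was at 12.1 and 11.1 TPM. The latter stretches thus stood between a gene below 1 TPM and a detected one.

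In 10 of the 13 pairs the repair gene was lower than its neighbour in both pools. The same share over all head-to-head genes was not computed, so this count has no comparison. Atm was above its neighbour Npat, which was at 15.5 and 15.3 TPM, and Xrcc1 was above Pinlyp, which was listed at 0 in both pools. Prkdc starts 466 bases from Mcm4, and both were detected at 24.6 and 29.9 TPM in the alum pool. Fen1 and Tmem258, whose 5′ ends overlap, were at 4.76 and 39.8 TPM in the alum pool and 5.62 and 31.9 TPM in the alum + KLH pool. Opposite-strand exons also overlap 22.6% of the Trp53bp1 transcript (Tubgcp4, at 73.2 and 77.0 TPM) and 70.8% of that of Apex1 (Pip4p1, listed as Tmem55b at 59.4 and 50.9 TPM), and whether strand was used in quantification is not given in the sources used here, so reads of such partners may not be told apart.

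**Figure D4:**
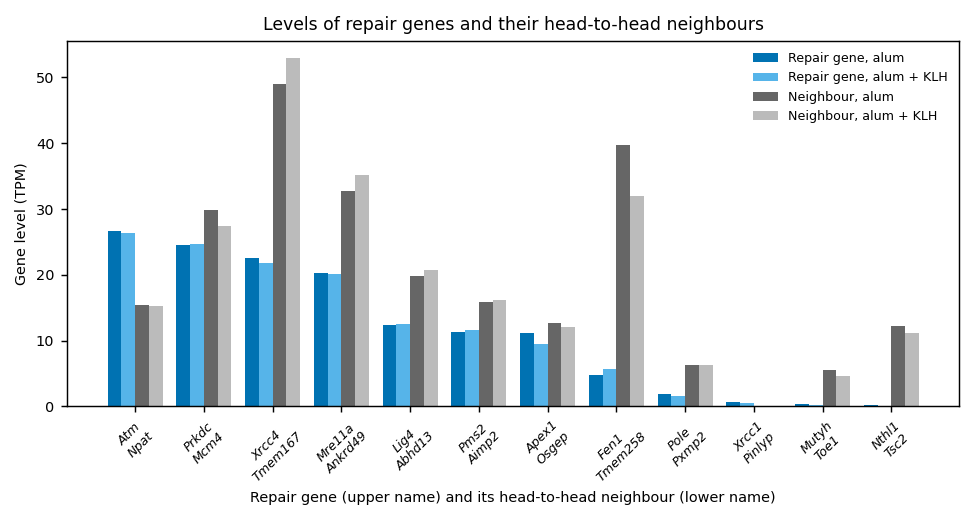
TPM of 12 of the 13 repair genes with a head-to-head neighbour (blue) and of that neighbour (grey) in the alum and the alum + KLH pool, 1 library per bar. The repair gene is the higher of the pair for Atm and Xrcc1, and the bars of Mutyh and Nthl1 stay near 0 beside 5.55 and 12.1 TPM of their neighbours in the alum pool.

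The 250 bases before the start were available for 29 of the 38 genes from RefSeq (GRCm38.p6). In 24 of these (82.8%) the observed CG count exceeded 0.6 of that expected from the base content, a usual limit for CpG-rich promoters, against 47.5% of 15609 protein-coding genes. The letters CCAAT were present on either strand in 17 of 29 (58.6%), against 36.2%, and GGGCGG in 18 (62.1%), against 44.9%. Any of the words TTTGGCGC, TTTCCCGC, TTTCGCGC and TTTGCCGC, which the cell cycle factors of the E2F family bind, was found in 4 of 29 (13.8%), against 2.40%. The shown stretches before Apex1, Pms2 and Mutyh hold CCAAT on either strand, and that before Nthl1 does not. A match is a description of letters and not of a bound site.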

How the data were processed

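Libraries of 2 pools were made with a stranded mRNA kit and sequenced as paired-end reads. Per the labels and the study's methods, the authors trimmed reads with cutadapt, ran kallisto on mouse transcripts of mm10 and deposited TPM per RefSeq transcript (versions not given in the sources used here). From the deposited TPM, rows were summed per gene symbol, and log2 ratios were formed with a pseudocount of 1 TPM over genes above 3 TPM in at least 1 pool. Of the head-to-head pairs 1 is counted but not reported here, and 1 cell type marker likewise. No test was made, since each group is 1 library. All members are named. Of every other pathway list its highest and lowest gene and those 1.5-fold apart are named. Of each cell type list its highest gene and those at 0 are named. Ccna2, Mki67, Top2a, Neil2, Neil3, Mbd4, Mpg, Ung, Pole4 and Rfc1 were named after their values were seen. So were the genes next to members and the 4 sequences shown. Members and lists were chosen with earlier results of these data known. Positions, exons, GC content and shared 31-base words came from GENCODE M21 (GRCm38, the assembly of mm10), matched by RefSeq identifier for 53 of 53 member rows and 97.8% of genes. The annotation holds more genes than the RefSeq set, and shared words count either orientation. Calculations used Python 3.11.15 with numpy 2.4.6 and pandas 2.3.3, plots matplotlib 3.10.9, and the ratio and its neighbour SD were tested on simulated data. Alternatives were the highest row per gene, NM_ rows alone, scaling to the median ratio, pseudocounts of 0.1 and 0.5 TPM, limits of 1 and 10 TPM and no filter. The GC class medians and the SD over protein-coding neighbours were chosen after seeing the data.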

Additional observations from a re-analysis of the deposited data

How the results depend on the processing

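The number of repair genes above the detection limit in both pools was 29 with the highest row of each gene, NM_ rows alone or rescaled values, 32 with a limit of 1 TPM and 22 with 10 TPM. Among the repair genes that passed the filter of each alternative, none was 2-fold apart. At 1.5-fold the count was 1, Tdg, with a limit of 1 TPM and also with no filter, and 0 otherwise. The median log2 ratio of the repair genes ranged from -0.04, after subtraction of GC class medians (chosen after seeing the data), to 0.00 with rescaling to the median ratio. The count of all genes at least 2-fold apart fell from 191 to 17 with NM_ rows alone and to 74 with a limit of 10 TPM. Among single genes, the highest row gave log2 ratios of 0.51 for Mlh3 and -0.38 for Dclre1c, against -0.07 and -0.17 for the sums, and a pseudocount of 0.1 TPM gave 1.196 for Tdg, -0.91 for Nthl1 and -0.87 for Mutyh, which all lie outside the filter of 3 TPM. With the pseudocount of 1 TPM these ratios were 0.77, -0.18 and -0.23. No paired analysis was possible because each group is 1 library, and for the same reason no library could be left out. TPM keep no depth, so the values under 1 TPM mark genes as below the limit and not as free of reads.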
